A study of Mus musculus with 8 samples.

Results

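The genes that make, break down and sense cAMP in the oocyte were followed in ribosome-bound and total mRNA of ovulated mouse oocytes. The set holds 10 genes chosen by name: the receptors Gpr3 and Gpr12, the stimulatory G protein subunit Gnas, the adenylyl cyclases Adcy3 and Adcy9, the phosphodiesterase Pde3a, and the protein kinase A (PKA) subunits Prkaca, Prkacb, Prkar1a and Prkar2b. A gene was taken from a table where the symbol in its row name was that of a member. The table of ribosome-bound mRNA held 7 of the 10 genes among 8898 genes, the table of total mRNA held 8 among 10530 genes, and the same 7 were among the 8537 genes of both. Gpr12 was listed in total mRNA only, and Gnas and Adcy3 were in neither table.

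RNA-Seq was performed on 4 pools of 200 oocytes arrested at metaphase of the second meiotic division (MII), 2 pools from young females (1 month) and 2 from old females (12 to 15 months). All donors were RiboTagF/F;Zp3-Cre females on the C57BL/6 strain, in which Cre recombinase driven by the Zp3 promoter, active in growing oocytes, switches on an HA-tagged Rpl22 ribosomal protein, so that ribosomes of other cells carry no tag. Every female received 5 IU of PMSG and, after 48 h, 10 IU of hCG, and ovulated oocytes were taken 13 h later. Each pool gave an input library (total mRNA, from 10% of the lysate) and an HA library (mRNA recovered with HA-tagged ribosomes), and each pool combines several oocyte collections. The old females were retired breeders.

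In the follicle, mouse oocytes are held in meiotic prophase by cAMP made in the oocyte itself. The orphan receptor GPR3, and to a lesser extent in mouse GPR12, signals without an added ligand through the stimulatory G protein to adenylyl cyclase, and cAMP keeps PKA active. The phosphodiesterase PDE3A breaks cAMP down, and its activity rises when the luteinizing hormone surge lowers cGMP, which lets PKA activity drop and meiosis resume. PKA is a tetramer in which regulatory subunits (here Prkar1a and Prkar2b) hold catalytic subunits (Prkaca and Prkacb) inactive until cAMP binds. The MII oocytes measured here were already past this arrest.

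Fully grown oocytes do not transcribe, and many of their mRNAs are translated when CPEB1 binds a cytoplasmic polyadenylation element (CPE) in the 3′-UTR. The letters of such elements were therefore looked for in the members' 3′-UTRs, and the copy nearest the 3′ end is shown, 5′ to 3′ on the transcript's strand, with TTTTAT or TTTTAAT in capitals.
Gpr3: cagcctctggttTTTTATttttttaagaag
Gpr12: tacttttttttTTTTAATcaaggtagatct
Adcy3: agaacaggactgTTTTATtaaaagctttac
Pde3a: aagaattgacaTTTTAATccacaagtatta
Prkaca: tggaaagggagaTTTTATgacctgtacaga
Prkacb: gaaaatgtgttTTTTAATtcatcaataacc
Prkar1a: ttggctatctttTTTTATatttaaaaaaat
Prkar2b: ccttataataaagcacacTTTTATaataaa

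These windows of 30 bases come from genome build GRCm38 with GENCODE release M21. They lie at chr4:133209641-133209670 on the minus strand for Gpr3, chr5:146582688-146582717 on the minus strand for Gpr12, chr12:4213487-4213516 on the plus strand for Adcy3 and chr6:141507328-141507357 on the plus strand for Pde3a. Those of the kinase subunits lie at chr8:83995820-83995849 on the plus strand for Prkaca, chr3:146729604-146729633 on the minus strand for Prkacb, chr11:109669125-109669154 on the plus strand for Prkar1a and chr12:31958476-31958505 on the minus strand for Prkar2b. Only the transcript's strand was searched, in the longest 3′-UTR annotated, and the 2 motifs cannot start at the same base.

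The distance from the 3′ end separated the members. The last copy ended 6 bases from the 3′ end in Prkar2b, 21 in Adcy3, 42 in Prkacb and 103 in Pde3a, and 300 to 606 bases away in Gpr12, Gpr3, Prkar1a and Prkaca. Pde3a had the longest 3′-UTR of the set, 8555 bases with 17 copies, followed by Prkacb with 7 copies in 3014 bases and Prkar2b with 5 in 1913 bases. Gpr3 had 2 copies in 1027 bases, and the 3′-UTRs annotated for Gnas and Adcy9 had none. The 3′ ends annotated for Pde3a and Adcy9, unlike those of the other members, had no AATAAA or ATTAAA within 50 bases. The distance in Pde3a and the lack of a copy in Adcy9 depend on these annotated ends. Of the 9866 genes of either table with an annotated 3′-UTR, 67.6% held a copy and 21.2% held it within 100 bases of the end, so that a copy is common and its presence in 8 of 10 members describes the sequence only.

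Values are CPM (reads on a gene relative to the library total after the authors' TMM normalization, made for HA and input on their own). The values of an age are given for pool 1 and then pool 2. The libraries held between 37817382 and 60052814 reads on the listed genes, and 3 reads, taken as the floor, corresponded to 0.0388 to 0.111 CPM in HA and 0.0435 to 0.0788 CPM in input, which covers counting error only. All 10 oocyte markers examined were in both tables and summed to 8569 to 17600 CPM per library. Of 20 markers of cumulus and granulosa cells, the follicle cells that surround the oocyte, 12 were in the input table, where they summed to 159 and 325 CPM in the old and 211 and 299 CPM in the young pools. In HA 4 of the 20 were listed (Cyp19a1, Ptgs2, Fshr and Nr5a2), with sums of 144 and 88.8 CPM in the old and 199 and 207 CPM in the young pools, and their part in the results was not tested. Of the 20, Amh, Cyp11a1, Foxl2, Lhcgr, Nppc, Npr2, Nr5a1 and Ptx3 were in neither table, and none of 4 blood markers was listed. Among those listed, Cyp19a1 had 80.4 and 69.7 CPM in the old and 142 and 174 CPM in the young HA libraries. Between the 2 pools of an age, the median gap over all genes on the log2(CPM + 1) scale was 1.29 for old HA, 0.77 for young HA, 0.77 for old input and 0.59 for young input, so that the old HA libraries differed most from each other.

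Old and young pools were compared with limma on log2(CPM + 1), and the p-values were adjusted after Benjamini and Hochberg across each table. Translation efficiency (TE) was the HA CPM over the input CPM of the same pool, and was compared between ages on the log2 scale with 1 CPM added to each value. For 1 gene alone, the smallest two-sided p of an exact permutation of 2 pools against 2 is 0.333. The pools are biological samples by the study's account, and in such bulk samples fewer cells carrying an mRNA and less of it per cell cannot be told apart.

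Among the receptors, Gpr3 (chr4:133209340-133212536, minus strand) was the abundant one. In input Gpr3 had 82.2 and 82.3 CPM in the old and 119.7 and 86.8 CPM in the young pools, so that both old values lay below both young ones by a small margin. In HA it had 42.8 and 3.81 CPM in the old and 49.7 and 24.8 CPM in the young pools. The low HA value of old pool 2 rested on 103 reads, well above the floor, while the same pool held 4104 reads of Gpr3 in input. Old pool 2 thus stood apart in HA, where the 2 old pools differed 11.3-fold, and not in input, where they differed 1.00-fold. The TE of Gpr3 was 0.521 and 0.0462 (old pools) and 0.415 and 0.286 (young pools), below the median of all genes in every pool.

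The log2 difference of Gpr3 between old and young was -0.31 in input (95% confidence interval -1.16 to 0.55, limma adjusted p = 0.935), and -0.076 without young pool 1 or -0.54 without young pool 2. In HA it was -1.32 (-4.72 to 2.09, limma adjusted p = 0.791), an interval that spans a large change in either direction. Without old pool 2 the HA difference was 0.28 and the TE difference was 0.58, so that the sign was set by that pool, and without old pool 1 the HA difference was -2.91 (unadjusted p = 0.0163, adjusted p = 0.114 in limma). The TE difference over all pools was -1.01 (-4.79 to 2.76, limma adjusted p = 0.913). On the same scale the gap between the old HA pools, 3.19, was larger than that of 81.9% of all genes, and the gap between the old input pools, 0.00, was larger than that of 0.584% of them.

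Gpr12 (chr5:146582398-146585239, minus strand), the related receptor, was a rare mRNA. It had 1.05 and 2.41 CPM in the old and 2.34 and 5.36 CPM in the young input libraries, from 57, 120, 161 and 204 reads in that order. The groups overlapped, and the log2 difference was -0.80 (-2.93 to 1.33, limma adjusted p = 0.932), or -0.34 without young pool 2. Per kilobase of exon, Gpr3 made up 93.7% to 98.6% of the level of the receptors listed in input, and Gpr6, the other relative of this family, was in neither table. Reads were counted over whole genes, introns included, while all levels per kilobase here were taken over exon length only. The effect of this on such levels was not tested.

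The stimulatory G protein could not be followed through Gnas. Of the exon bases annotated for Gnas (chr2:174284320-174346744, plus strand), 32.5% lie under other annotated genes, mainly the opposite-strand genes Gm20721 and Nespas, and of those of Adcy3 (chr12:4133103-4213525, plus strand) 61.1% lie under Cenpo on the opposite strand. Reads were counted over whole genes without regard to strand, and Cenpo was listed in both tables. The part of these overlaps in the absence of the 2 genes was not tested. Among the other members, Gpr3 had 7.90% of its exon bases under Cd164l2 and Pde3a had 5.82% under other genes, and the rest had none.

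Gnal, which encodes the close relative of this subunit, was also in neither table. The inhibitory alpha subunits, which lower cyclase activity, were listed instead. In HA the mean level of Gnai3 was 69.5 (old pools) and 107 (young pools) CPM per kilobase, beside 77.1 and 30.7 for the gamma subunit Gng12. In input Gnai1 had 60.3 (old pools) and 36.2 (young pools) CPM per kilobase, beside 38.2 and 46.6 for Gnai3, so that the order of these means differed between old and young pools in both tables. In old pool 2 Gnai3 (96.9 CPM per kilobase) lay above Gng12 (92.8) in HA as it did in the young pools. In input the order turned in young pool 1 only, with 26.1 for Gnai1 and 50.7 for Gnai3. Young pool 2, with 46.4 and 42.4, had the order of the old pools.

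Among the cyclases, which make cAMP, Adcy9 (chr16:4287529-4420498, minus strand) was present in total mRNA but scarce on ribosomes. In input it had 15.0 and 20.1 CPM in the old and 27.7 and 17.3 CPM in the young pools, with overlapping groups. In HA it had 0.499 and 5.84 CPM in the old and 1.4 and 2.03 CPM in the young pools, from 21, 158, 108 and 115 reads. Its TE was 0.0332 and 0.290 for old against 0.0504 and 0.117 for young pools, between the 0.931 and the 39.1 percentile of all genes of a pool. The old pools enclosed the young ones in HA and in TE alike. The log2 difference was -0.32 in input (-1.99 to 1.36), 0.25 in HA (-2.17 to 2.67) and 0.57 in TE (-2.52 to 3.66), with limma adjusted p of 0.979, 0.966 and 0.942. Leaving out old pool 2 turned the sign in HA (-0.85) and in TE (-0.33), and leaving out young pool 1 moved the input difference to 0.00.

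Per kilobase of exon, Adcy5 was the leading cyclase listed, with intronic reads counted but intron length left out. It made up 58.0% to 86.7% of the summed HA level of the cyclases in the 4 pools, against 3.59% to 26.2% for Adcy9. In input the margin was smaller, with 38.9% to 60.0% for Adcy5 and 20.1% to 36.0% for Adcy9. The Adcy5 level was 1.08 to 2.61 times that of Adcy9 in input and 2.74 to 17.1 times in HA.

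Pde3a (chr6:141249269-141507448, plus strand), the phosphodiesterase that ends the arrest, was the most abundant member, also per kilobase of exon. Its input level was 489 and 511 CPM in the old and 631 and 676 CPM in the young pools. Both old pools lay below both young ones, and the 2 pools of an age differed by only 1.05-fold (old) and 1.07-fold (young). The log2 difference was -0.39 (-0.91 to 0.14), the narrowest interval of any member, with an unadjusted p of 0.13 and an adjusted p of 0.812 in limma. In HA the levels were 355 and 624 CPM in the old and 636 and 434 CPM in the young pools, which overlap, and the log2 difference was -0.16 (-1.26 to 0.95, limma adjusted p = 0.948), or 0.25 without old pool 1 and 0.12 without young pool 1.

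The TE of Pde3a was 0.726 and 1.22 (old pools) and 1.01 and 0.641 (young pools), with a log2 difference of 0.23 (-1.88 to 2.34, limma adjusted p = 0.97), or -0.15 without old pool 2 and -0.10 without young pool 2. It stayed near the middle of all genes, between the 44.9 and the 66.5 percentile. Per kilobase, Pde3a reached 45.3 CPM in input and 40.2 CPM in HA as a mean of 4 pools, above 91.8% and 88.9% of all genes. It made up 42.2% to 56.6% of the summed level of the cAMP phosphodiesterases in input, ahead of the other 11 listed. In HA its share ran from 24.8% to 67.3%, and in old pool 1 it was exceeded by Pde8a, with 65.8%.

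The catalytic subunit Prkaca (chr8:83972993-83996443, plus strand) was the only member whose input level in both old pools lay above that in both young pools. It had 20.0 and 27.9 CPM in the old and 7.82 and 15.2 CPM in the young input libraries. Its log2 difference was 1.04 (-0.80 to 2.89), with an unadjusted p of 0.23 and an adjusted p of 0.888 in limma, and it was 0.61 without young pool 1. In HA it had 1.33 and 15.1 CPM in the old and 5.03 and 1.37 CPM in the young pools, and its TE was 0.0667 and 0.542 for old against 0.643 and 0.0907 for young pools. A pool of each age was thus high and a pool of each age low. The log2 difference was 0.70 in HA (-2.80 to 4.2, limma adjusted p = 0.921) and -0.35 in TE (-4.10 to 3.41, limma adjusted p = 0.972). The HA difference was -0.70 without old pool 2, and the TE difference was 0.82 without old pool 1 and 0.76 without young pool 1.

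Prkacb (chr3:146729574-146812990, minus strand), the other catalytic subunit, was poorly associated with ribosomes in every pool. Input held 25.5 and 9.17 CPM in the old and 10.6 and 12.6 CPM in the young pools, where a single old pool was high. HA held 1.83 and 0.0739 CPM in the old and 2.33 and 0.564 CPM in the young pools, from 77, 2, 180 and 32 reads. The TE was 0.0717 and 0.00806 (old pools) and 0.220 and 0.0447 (young pools), and the value of old pool 2, from 2 reads, has a 95% exact Poisson interval of 0.000976 to 0.0291. These values lay between the 4.31 and the 17.7 percentile of all genes, so that Prkacb was below the 25th percentile in 4 of 4 pools. The log2 difference between ages was 0.39 in input (-1.66 to 2.44), -0.39 in HA (-2.13 to 1.36) and -0.78 in TE (-3.60 to 2.05), with limma adjusted p of 0.979, 0.904 and 0.909. The input difference was -0.30 without old pool 1, and the HA difference was 0.31 without old pool 2 and 0.16 without young pool 1. The TE difference was -0.11 without young pool 1 and -1.44 without young pool 2.

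The regulatory subunit Prkar1a (chr11:109649405-109669656, plus strand) had the opposite place, with TE above the median of all genes in every pool. Its HA level was 38.5 and 19.2 CPM in the old and 57.0 and 51.4 CPM in the young pools, the only member without overlap in HA. The log2 difference was -0.97 (-3.09 to 1.15), with an unadjusted p of 0.315 and an adjusted p of 0.753 in limma, the smallest adjusted p of the 7 members in HA, and it was -0.48 without old pool 2 and -1.45 without old pool 1. Its input level was 51.3 and 11.1 CPM in the old and 33.5 and 27.0 CPM in the young pools, so that the old pools enclosed the young ones, with a log2 difference of -0.31 (-2.14 to 1.52, limma adjusted p = 0.982), or 0.75 without old pool 2. The TE was 0.750 and 1.73 for old against 1.70 and 1.90 for young pools, at the 52.0 to 86.0 percentile. Old pool 1 alone was low, and the log2 difference in TE was -0.66 (-2.62 to 1.30, limma adjusted p = 0.88), or -0.086 without that pool and -1.23 without old pool 2.

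Prkar2b (chr12:31958476-32061296, minus strand), the other regulatory subunit, differed more between the pools of an age than between the ages in HA and in input. It had 10.4 and 28.4 CPM in the old and 12.0 and 24.9 CPM in the young HA libraries, and 21.6 and 37.2 CPM in the old and 23.7 and 46.7 CPM in the young input libraries. Pool 2 was the higher of each pair in HA and in input. The TE was 0.481 and 0.763 (old pools) and 0.507 and 0.533 (young pools). Between the ages it differed on the log2 scale by -0.22 in input (-1.69 to 1.25), -0.00 in HA (-3.10 to 3.09) and 0.22 in TE (-2.17 to 2.61), with limma adjusted p of 0.982, 1.00 and 0.972. Leaving out old pool 1 or young pool 2 turned the input difference to 0.16 and 0.25 and the HA difference to 0.68 and 0.49, and leaving out old pool 2 turned the TE difference to -0.09.

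**Figure D1:**
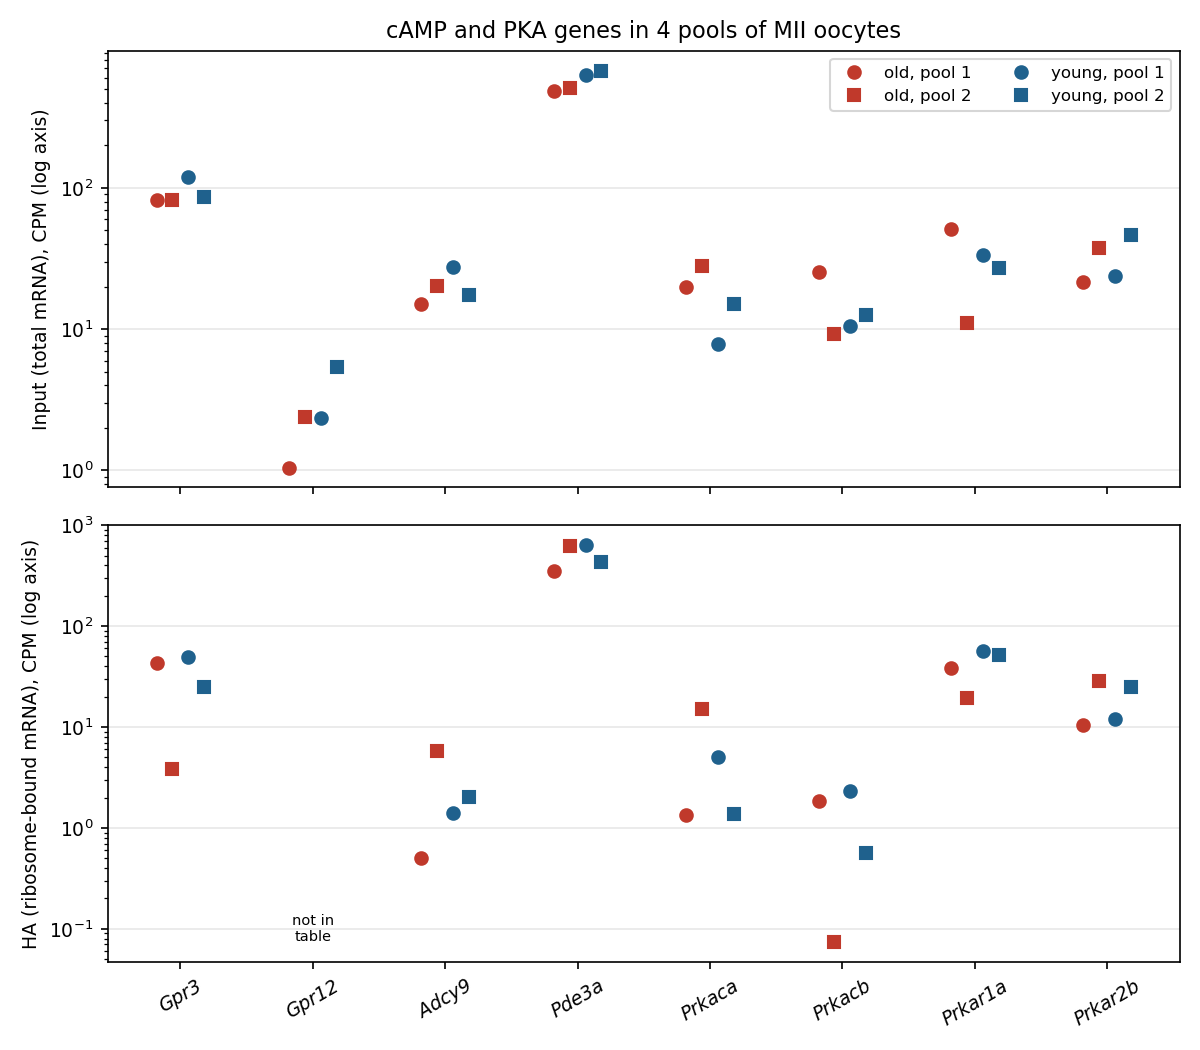
CPM of each member (log axis) in the 4 input libraries, above, and the 4 HA libraries, below, with old pools in red and young pools in blue. Input points of Pde3a lie close together, from 489 to 676 CPM, whereas HA points of Gpr3, Adcy9, Prkaca and Prkacb are widely spread, Gpr3 from 3.81 to 49.7 CPM.

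Levels of the kinase subunits relative to each other were set side by side per kilobase of exon, with the same limit from intronic reads. Prkaca exceeded Prkacb in every library, by 2.61 to 10.7 times in input, and by 2.56, 7.62 and 8.59 times in the 3 HA libraries where Prkacb was above the floor. Prkar1a exceeded Prkaca in 3 of 4 pools in HA, by 16.6 times in old pool 1 and by 6.53 and 21.5 times in the young pools, but was at 0.731 of it in old pool 2. In input the same ratio was 1.48 and 0.229 for old against 2.46 and 1.03 for young pools. Prkar2a, a regulatory subunit that is not a member, had the largest share of the subunits' input level in 3 of 4 pools and 28.0% to 44.0% over all, and Prkaca led in old pool 2 with 31.9%. In HA Prkar2a had 52.8% and 54.7% in old against 29.1% and 31.6% in young pools, where Prkar1a led with 48.6% and 38.0%.

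Ribosome association placed some members alike in every pool. Because HA and input were normalized separately, a TE of 1 has no fixed meaning and was not tested, and each gene was placed among all genes of its pool, whose median TE was 0.695 and 0.581 (old pools) and 0.730 and 0.726 (young pools). Gpr3, Adcy9, Prkaca and Prkacb lay below the middle of all genes in 4 of 4 pools and Prkar1a above it in 4 of 4. Prkar2b lay below it in 3 pools, and Pde3a in 1 pool. The ranges of Gpr3 (20.5 to 42.6 percentile), Adcy9 and Prkaca (7.29 to 48.8) overlapped, so that no order can be read among them, and those of Prkacb and Prkar1a did not overlap each other.

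**Figure D2:**
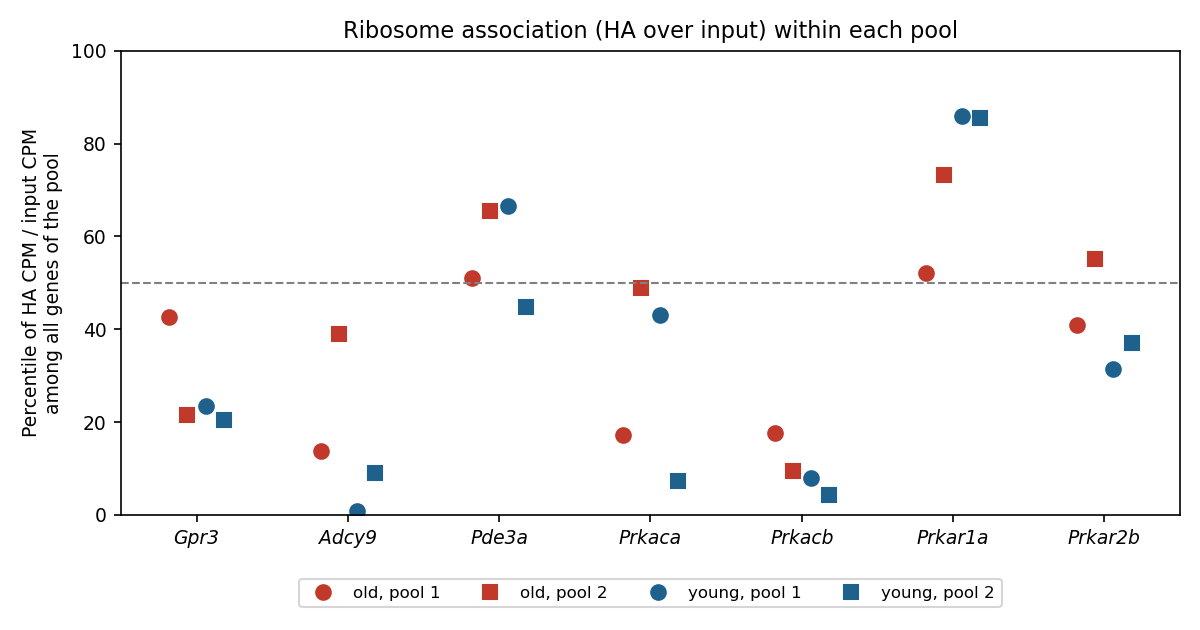
Percentile of HA CPM over input CPM (TE) of the 7 members found in both tables among all genes of the same pool, with old pools in red, young pools in blue and the middle of all genes as a dashed line. Prkacb lies at or below the 17.7 percentile and Prkar1a at or above the 52.0 percentile in all 4 pools.

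For age as a whole, limma called 0 of 7 members in HA, 0 of 8 in input and 0 of 7 in TE at an adjusted p under 0.05, where 0%, 0.0095% and 0% of all genes were called. At an unadjusted p under 0.05 it called 0 members in each, where 14.7% of all genes were called in HA, 6.18% in input and 6.56% in TE, and edgeR (in TE as an interaction of age and fraction) and, in HA and input, DESeq2 on recovered reads called 0 members at either threshold. Of the 1311 genes at an unadjusted p under 0.05 in HA, 381 were higher in old oocytes, against 112 of 1395 with libraries brought to 1 sum and 253 of 483 after quantile normalization. With the stated filter of 10 CPM in at least 2 libraries it was 375 of 537, so that the balance of directions turned. In input 285 of 651 were higher, against 179 of 716 with the same sum, and in TE 199 of 560, against 123 of 641 with the same sum and 251 of 457 after quantile normalization. The smallest adjusted p of a member was 0.753 in HA, 0.812 in input and 0.88 in TE.

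Both old pools lay below both young pools for 1 of 7 members in HA (Prkar1a), where 24.7% of all genes did so, and for 2 of 8 in input (Gpr3 and Pde3a), where 18.9% did. They lay above for 1 of 8 in input (Prkaca), against 16.4% of all genes, and for 0 of 7 in HA, against 17.2%. In TE the groups of all 7 members overlapped, while 16.7% of all genes lay above and 22.5% below. The median log2 difference of the members was -0.16 in HA, -0.31 in input and -0.35 in TE, beside -0.14, -0.03 and -0.10 for all genes. In HA the median over all genes was -0.68 when each library was rescaled to the same sum, and that of the members -0.65. The sign of the members' median was not stable in HA and TE. It was 0.25 in HA and 0.52 in TE without old pool 1, -0.56 and -0.33 without old pool 2, and 0.22 and 0.13 after quantile normalization. In input it stayed between -0.49 and -0.12. No difference was detected for these genes with 2 pools an age. The intervals leave room for sizeable ones in HA, TE and input, least so for Pde3a in input (-0.91 to 0.14).

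**Figure D3:**
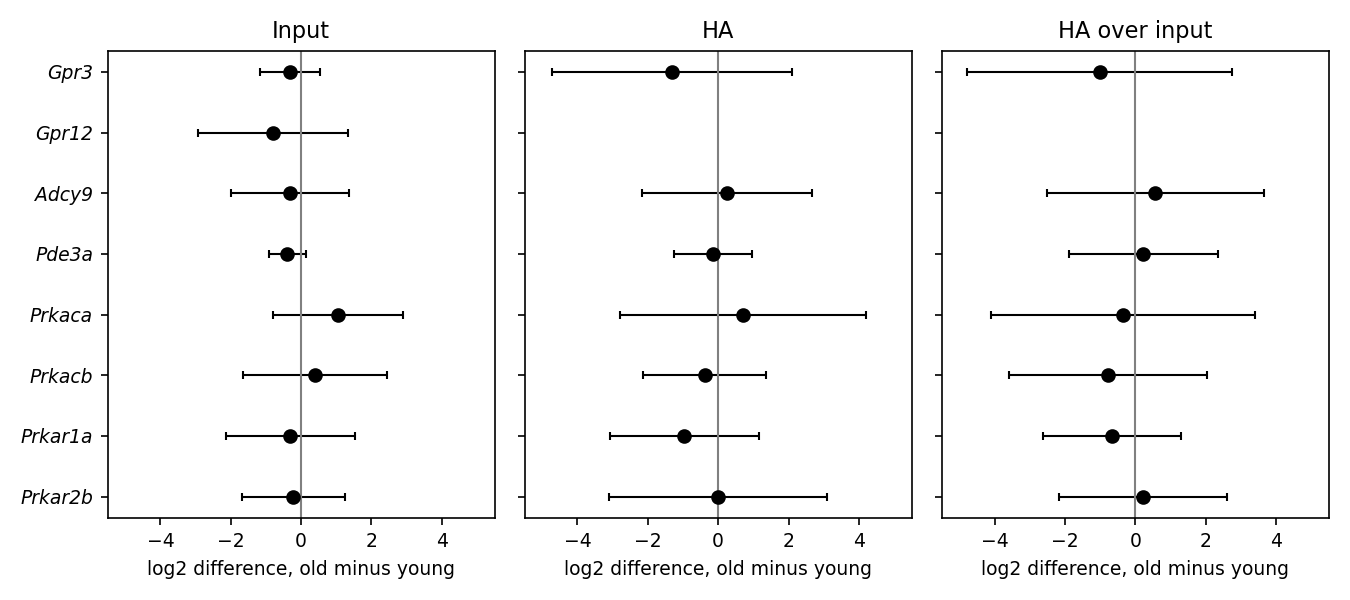
Log2 difference between old and young pools, old minus young, of each member in input, HA and HA over input (TE), as limma estimates with 95% confidence intervals from 2 pools an age. Every interval includes 0, and that of Pde3a in input (-0.91 to 0.14) is the narrowest.

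The wider cAMP and PKA pathway was taken as a list of 104 genes including the members, in which some genes stand under an older and a newer symbol. Of the 94 other genes, 51 were in the HA table, 55 in input and 50 in both. In HA 15 of the 51 had an unadjusted p under 0.05 in limma, of which 4 were higher and 11 lower in old oocytes (4.28% and 10.5% of all genes), and 0 had an adjusted p under 0.05 (smallest 0.297). With the stated filter of 10 CPM in at least 2 libraries, 4 of 32 passed the unadjusted threshold, all 4 higher in old oocytes. The 11 lower ones were thus not called under that filter. At an adjusted p under 0.05 in HA, edgeR's likelihood ratio test called 4 of the 51, where it called 295 of all 8898 genes. Its quasi-likelihood test called 0 of either, and DESeq2 called 2 of the 51, where it called 508 of all genes. With libraries brought to 1 sum, 1 of 16 was higher at an unadjusted p under 0.05. In input 4 of 55 passed that unadjusted threshold, 1 of them higher and 3 lower in old oocytes (2.71% and 3.48% of all genes), and in TE 1 of 50, lower in old oocytes (2.33% of all genes were higher and 4.23% lower), again with 0 at an adjusted p under 0.05. Leaving out a pool moved the input count to between 0 (without young pool 1) and 7 (without old pool 2) and the TE count to between 0 (without young pool 1) and 13 (without old pool 1). The median log2 difference of these genes was -0.41 in HA, -0.15 in input and -0.39 in TE.

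In HA the smallest p belonged to Akap17b, of the anchoring proteins that tether PKA at sites in the cell. It had 493 and 923 CPM in the old and 150 and 191 CPM in the young HA libraries (log2 difference 1.99, 0.83 to 3.15, limma adjusted p = 0.297), and its TE was 1.49 and 1.87 for old against 0.530 and 0.545 for young pools. The old pools were higher in both measures, and the HA difference ranged from 1.35 to 2.44 over other settings and with a library left out. Akap9, Gng12 and Wee2, an inhibitory kinase of CDK1 in oocytes, were the other 3 that were higher in old HA libraries at an unadjusted p under 0.05, the former pair being named after their values were seen.

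The next 4 by p in HA were all nearly without reads in old oocytes. Every gene listed in HA reached at least 0.788 CPM in 2 libraries. Genes this low in both old pools were thus listed only through their young values, which fixes the direction in part. None of the 4 met the stated filter of 10 CPM in at least 2 libraries. Creb1, the cAMP-responsive transcription factor, had 1 and 3 reads in old against 334 and 219 in young HA libraries. Ric8b, a chaperone of the stimulatory G protein alpha subunit, had 1 and 3 reads against 254 and 568. Prkx, a relative of the PKA catalytic subunits, had 0 and 1 read against 224 and 692, and Prkg2, a cGMP-dependent kinase, had 2 and 7 against 691 and 249. Their log2 differences of -2.25 (Creb1), -2.69 (Ric8b), -2.82 (Prkx) and -2.67 (Prkg2), each with a limma adjusted p of 0.297, depend on the 1 CPM added and set no bound on the change. Over other settings and with a library left out, the differences ranged from -5.93 to -0.84 (Creb1), -6.62 to -1.14 (Ric8b), -8.68 to -1.22 (Prkx) and -5.45 to -1.15 (Prkg2). Over all pools, on recovered reads, Prkx passed an adjusted p of 0.05 in edgeR's likelihood ratio test (0.0462) and in DESeq2 (0.0142), and none of the 4 did in edgeR's quasi-likelihood test. In input, Creb1 had 0.478 and 2.77 CPM in old against 8.87 and 17.0 CPM in the young pools (log2 difference -2.50, -4.90 to -0.10, limma adjusted p = 0.778).

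In input the smallest p belonged to Gja4, the gap junction protein through which cumulus cells pass cGMP to the oocyte. Its level was 147 and 199.9 CPM in the old and 268 and 323 CPM in the young pools (log2 difference -0.77, -1.46 to -0.09, limma adjusted p = 0.778). The cyclase Adcy8 had 4.96 and 2.13 CPM in the old and 18.3 and 29.1 CPM in the young pools (-2.48, -4.69 to -0.27, limma adjusted p = 0.778). The inhibitory subunits Gnai2 and Gnai1 were higher in the old pools, with log2 differences of 0.93 (0.07 to 1.79) and 0.78 (-0.07 to 1.64) and the same adjusted p. Over other settings and with a library left out, the differences ranged from 0.73 to 1.14 for Gnai2 and from 0.37 to 1.19 for Gnai1. In TE these 2 were lower in the old pools, with Gnai2 at 0.0221 and 0.318 (old pools) and 0.729 and 2.69 (young pools), and Gnai1 at 0.671 and 0.510 for old against 1.71 and 1.79 for young pools (limma adjusted p of 0.724 and 0.738).

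Pde1b, a calcium-activated phosphodiesterase, was the gene with an unadjusted p under 0.05 in TE. Its HA libraries held 8 and 3 (old) and 986 and 177 (young) reads, while input held 2257 and 2295 against 2379 and 1167 reads. The TE was 0.00458 and 0.00241 (old pools) and 0.369 and 0.102 (young pools), and the value of old pool 2, from 3 reads, has a 95% exact Poisson interval of 0.000497 to 0.00704. The log2 difference was -3.12 (-5.68 to -0.56, limma adjusted p = 0.724). This value depends on the 1 CPM added, and ranged from -5.82 to -1.60 over other settings and with a library left out. Pde1b too was listed in HA only through its young values. Ric8b had a TE of 0.00880 and 0.00595 for old against 1.52 and 0.716 for young pools (limma adjusted p = 0.724), where its 1 and 3 reads in the old HA libraries give 95% exact Poisson intervals of 0.000223 to 0.0490 and 0.00123 to 0.0174.

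Set among the whole list by level per kilobase of exon, Pde3a was rank 10 of 58 genes in HA and rank 9 of 63 in input, and Gpr3 rank 20 and rank 11. Introns were not allowed for in these ranks. Pde3a spans 258180 bases with 12737 of exon, and Gpr3 spans 3197 with 2734. Wee2 and Rgs2, a regulator of G protein signaling, led the list by mean level over the 4 pools in both tables, and Akap12 (145 CPM per kilobase in HA and 120.2 in input) led the anchoring proteins. Pkib, a PKA inhibitor, was rare, with 0.182 to 1.04 CPM per kilobase over the 4 input libraries. The kinase subunits lay lower, with means over 4 pools of 8.85 (Prkar2b), 7.12 (Prkaca), 7.11 (Prkar1a) and 1.65 (Prkacb) CPM per kilobase in input and of 5.18, 2.30, 9.61 and 0.137 in HA. The order of the first 3 in input cannot be told, since their ranges over the pools overlap. Adcy9 had 3.86 and Gpr12 1.11 CPM per kilobase in input, and Adcy9 had 0.470 in HA.

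**Figure D4:**
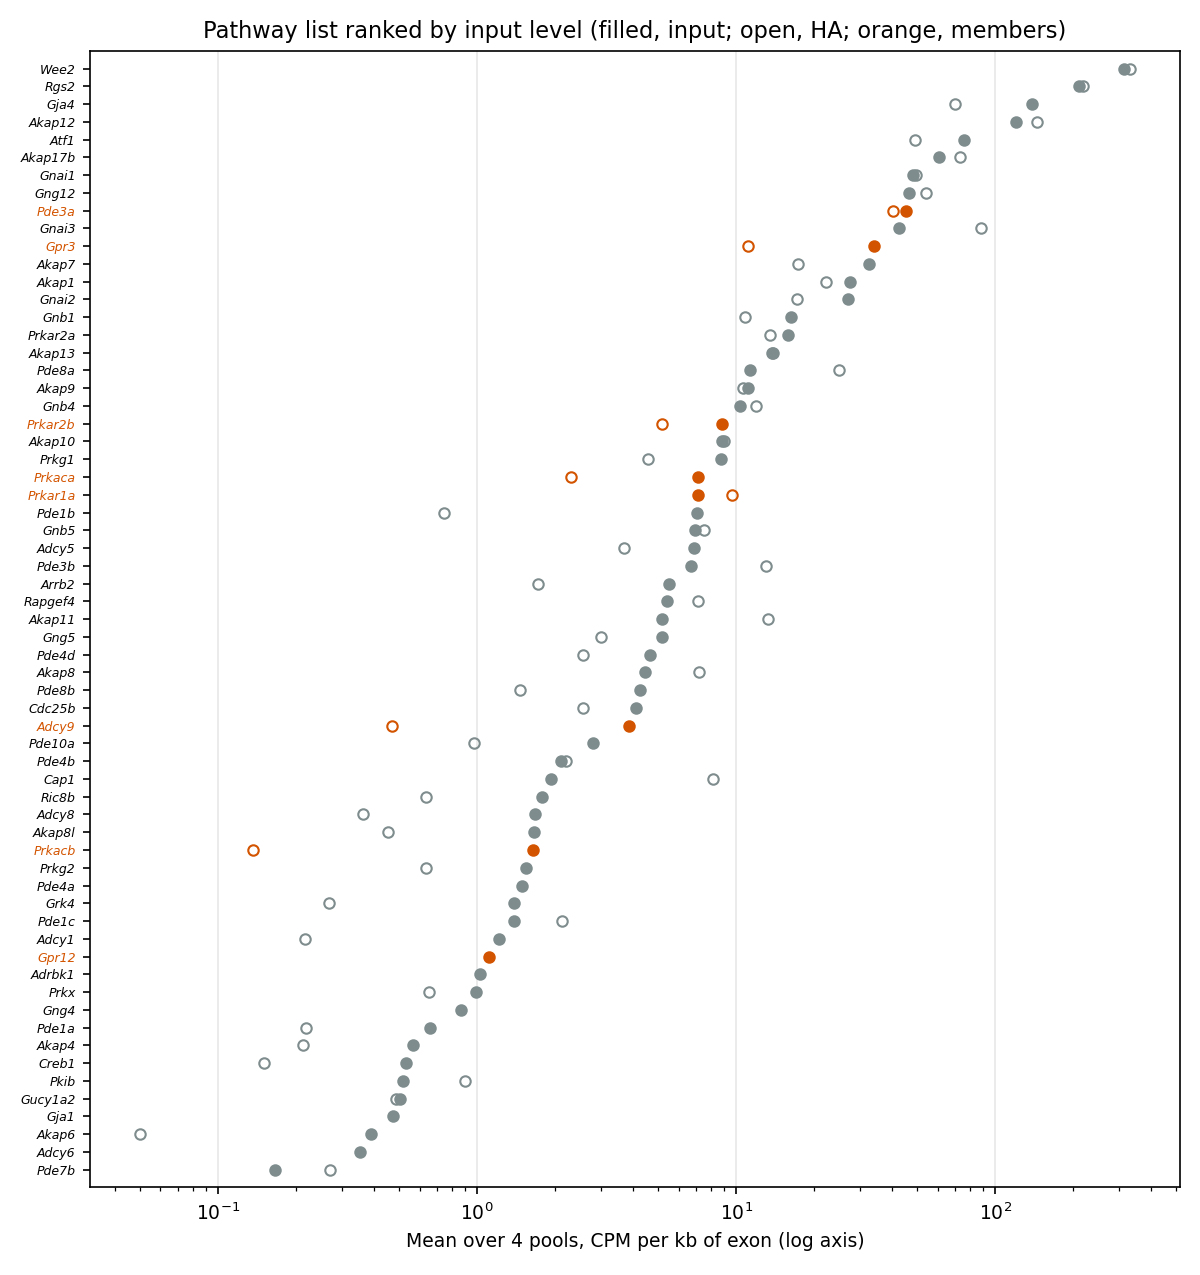
Mean level over the 4 pools, in CPM per kilobase of exon (log axis), of the 63 pathway genes listed in input, ranked by input level, with input as filled and HA as open circles and the members in orange. Pde3a (rank 9) and Gpr3 (rank 11) lie near the top, and Adcy9 and Prkacb show the widest gaps between input and HA among the members.

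The genes whose profile was nearest to that of a member were looked up over the 8 libraries, as Euclidean distance of log2(CPM + 1) centred on each gene's mean within HA and within input, among 8536 genes. Nearest to Gpr3 were Hnrnpa0 (distance 0.280), Rtn4ip1 (0.575) and Arf3 (0.583), where the median gene was at 3.36. Nearest to Pde3a were Zfp120 (0.290), Gm14270 (0.396) and Fras1 (0.416), where the median was 2.54. With 4 libraries a table these distances describe the profiles and carry no test.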

How the data were processed

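The authors trimmed the reads (Trimmomatic 0.36), aligned them with HISAT2 to GRCm38, counted them per gene with HTSeq against GENCODE release M11 and normalized HA and input separately by TMM in edgeR. The deposited signal values are the resulting CPM. The stated filter is 10 CPM in at least 2 libraries, which 4 of 7 members in HA and 7 of 8 in input pass. The lowest second-highest CPM of a listed gene was 0.788 in HA and 0.885 in input. All values (100%) were whole multiples of the CPM of 1 read within 0.01, so reads were recovered for edgeR and DESeq2.

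The main test was limma (lmFit, eBayes with trend) on log2(CPM + 1), two-sided, call threshold 0.05. HA and input of a pool were joined because the methods take the input from the same lysate, and the correlation of their deviations from the age mean was 0.00602 in old and 0.107 in young pools. The members and the pathway and marker lists were chosen with earlier results of these data known. Other pathway genes were named by a rule: the 5 with the smallest p in each comparison and the one with the highest level per kilobase in each role, and for Gpr3 and Pde3a the 3 nearest profiles. Exon lengths and 3′-UTRs came from GENCODE M21, which holds 99.7% (HA) and 99.8% (input) of the gene identifiers. Alternatives were other pseudocounts, a filter, scalings, tools, a replicate block and leaving out each library. The tests were tested on simulated data. Fits ran in R 4.3.3 (DESeq2 1.42.0, edgeR 4.0.16, limma 3.58.1). Annotation and plots used pandas 2.3.3, numpy 2.4.6 and matplotlib 3.10.9 under Python 3.11.15.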

Additional observations from a re-analysis of the deposited data

How the results depend on the processing

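No alternative gave a member an adjusted p under 0.05 in any of the 3 comparisons. At an unadjusted p under 0.05, 1 member (Gpr3) passed in HA without old pool 1 (range 0 to 1 over the libraries left out), 1 (Pde3a) in input after rescaling to the same sum and 1 (Pde3a) in input after quantile normalization. Over all single genes and alternatives, 446 values kept their direction and side of the threshold, 39 turned sign and 7 passed it in addition. The median shift of all genes in HA was -0.14, against -0.68 when libraries were brought to 1 sum and 0.05 by the median log2 ratio. The causes of the changes were not tested.

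When each library was left out in turn, the log2 differences in HA ranged from -2.91 to 0.28 for Gpr3, from -0.85 to 1.34 for Adcy9, from -0.56 to 0.25 for Pde3a, from -0.70 to 2.09 for Prkaca, from -1.09 to 0.31 for Prkacb and from -0.69 to 0.68 for Prkar2b. In input they ranged from -0.64 to 0.0041 for Adcy9, from -0.30 to 1.08 for Prkacb, from -1.36 to 0.75 for Prkar1a and from -0.70 to 0.25 for Prkar2b. In TE they ranged from -2.61 to 0.58 for Gpr3, from -0.33 to 1.46 for Adcy9, from -0.15 to 0.60 for Pde3a, from -1.51 to 0.82 for Prkaca and from -0.087 to 0.52 for Prkar2b. The sign held, with a range of -1.45 to -0.48 for Prkar1a in HA, of -0.54 to -0.076 for Gpr3, -1.27 to -0.34 for Gpr12, -0.44 to -0.34 for Pde3a and 0.61 to 1.48 for Prkaca in input, and of -1.44 to -0.11 for Prkacb and -1.23 to -0.086 for Prkar1a in TE. In these fits the lone pool of an age is assumed to vary like the other age.

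Rescaling to the same sum turned Adcy9 in HA (-0.19) and Pde3a (-0.22) and Prkar2b (-0.21) in TE. The median log2 ratio turned Pde3a (0.053) and Prkar2b (0.20) in HA. Quantile normalization turned Prkacb (0.58) and Prkar2b (0.22) in HA, and Pde3a (-0.35), Prkaca (0.59) and Prkacb (0.13) in TE. A pseudocount of 5 CPM turned Prkar2b in HA (0.0087). On recovered reads, DESeq2 turned Pde3a (0.12) and Prkar2b (0.30) in HA and Prkar1a in input (0.065), and both edgeR tests turned Prkar2b in HA (0.073) and Prkar1a in input (0.043).

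Of the other pathway genes at an adjusted p under 0.05 in HA (0 in limma), edgeR's likelihood ratio test called 4 of 51 (295 of 8898 genes) and DESeq2 2 of 51 (508 of 8898 genes). At an unadjusted p under 0.05 in HA (15), the count was 9 with a pseudocount of 5 CPM, 4 under the 10 CPM filter, 4 after quantile normalization and 8 to 15 with a library left out. In input (4) it was 2 after quantile normalization and 0 to 7 with a library left out. In TE (1) it was 2 with either pseudocount, 0 with the 10 CPM filter, 3 with the same sum, 3 after quantile normalization, 0 to 13 with a library left out, 7 in edgeR's interaction test and 3 with the variance trend on the mean level, which was chosen after seeing the data and made 254 of 554 calls over all genes higher in old oocytes, against 199 of 560.

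Over all genes at an adjusted p under 0.05, limma called 0 genes in HA and 1 in input, edgeR's likelihood ratio test 295 and 50, its quasi-likelihood test 0 and 0, and DESeq2 508 and 114. Old and young pools share only a replicate number (correlation of deviations 0.0786 in HA and 0.0269 in input). With the replicate number as a block, limma called 9 genes in HA, 1 in input and 0 in TE, other pathway genes at an unadjusted p under 0.05 went from 15 to 16 in HA and from 1 to 2 in TE, and the block changed no member's call.

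Low HA values limit Prkacb, Adcy9 and Prkaca, whose counts in some libraries were under 100 reads, and 2 pools an age limit every comparison.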
